A study of Populus trichocarpa with 12 samples.

Results

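The 280 genes described here lost most of their transcripts in young wood within 5 days without watering and stood at about the same level after 7 days. They were chosen from 41335 gene identifiers of Populus trichocarpa (black cottonwood) by their counts in all 12 libraries, so their low drought levels are a description and not a finding. CPM (counts per M) is a gene's count scaled to the total of its library, L is log2(CPM + 1), and L0, L5 and L7 are the means of L over the 4 libraries of days 0, 5 and 7. A member had a mean of at least 10 CPM on day 0, L5 minus L0 of at most -2.5, L7 minus L5 between -0.5 and 0.5, and all 8 drought libraries below all 4 of day 0. Of the 15482 genes with at least 10 CPM on day 0, 20.1% met the last condition alone and 1.81% met every condition.

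RNA was taken from stem differentiating xylem, the soft layer of forming wood scraped from debarked stems, of greenhouse trees grown for 3 months. The 4 day 0 libraries came from fully watered plants, whose water content was 74% in soil and 80.6% in xylem. Water was then withheld for 5 days (mild drought, 33% in soil and 75.3% in xylem) or for 7 days (severe drought, 29% and 74.3%), again with 4 libraries each. The growth protocol speaks of batches of transgenic and wild-type trees but ties none to these libraries, and it is not stated whether each library came from a separate tree. Watered plants of days 5 and 7 were not analysed here, so drought, plant age and harvest day cannot be told apart.

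Forming wood contains dividing cambial derivatives, expanding cells whose growth depends on turgor, and cells that deposit cellulose, xylan and lignin before they die. Water deficit is known to slow division and expansion in growing plant tissue. A transcript level is set by synthesis and decay, and in a scraped tissue also by the mix of cells, so fewer cells of a type and less RNA per cell cannot be told apart in these libraries. The count table gives identifiers without names, and the RefSeq gene table used here pairs none of them, so members are given by identifier with no assigned role. In an identifier such as Potri.018G126700 the number before the G is the chromosome, and the number after it follows gene order along it.

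Total counts lay between 9.35 M and 19.22 M per library. Genes known from publications as xylem markers, 8 for secondary wall cellulose synthases, caffeic acid methyltransferase and cinnamate hydroxylases, lay between 87.7 and 4748 CPM in the day 0 libraries. No identifier could be matched to a marker of bark, phloem or dividing cambium, so the share of other cells was not tested.

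The members' summed share of all counts was 1.495% ± 0.146 (SD, n = 4) on day 0. It was 0.133% ± 0.0345 (SD, n = 4) on day 5 and 0.142% ± 0.0560 (SD, n = 4) on day 7. The day 0 shares were 1.31%, 1.66%, 1.53% and 1.48% in replicates 1 to 4. On day 5 they were 0.103%, 0.180%, 0.135% and 0.113%, and on day 7 0.104%, 0.214%, 0.157% and 0.0919%. Every drought library was far below every day 0 library, as the rule required, whereas the 2 drought days overlapped. Without replicate 2, the highest of day 7, the mean of that day was 0.117%. Counts were spread over many members: 45 of them held 50% of the members' day 0 CPM, and the 10 with the most counts held 18.7%.

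**Figure D1:**
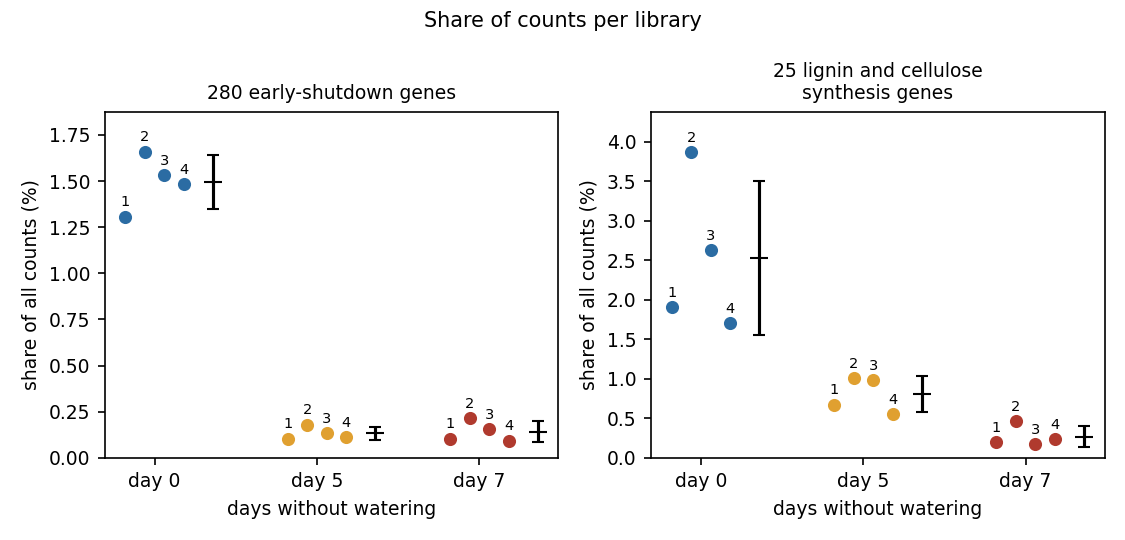
Share of all counts (%) held by the 280 members (left) and by 25 genes published for lignin and cellulose synthesis (right) in each library, by days without watering. Points are libraries with their replicate number, and bars are the mean ± SD of 4 libraries; the members stand at 1.31% to 1.66% on day 0 and at 0.0919% to 0.214% in the drought libraries.

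Most members kept less than 10% of their day 0 level. The mean CPM left on day 5 had a median of 7.07% of day 0 over the members, with quartiles of 3.12% and 11.1% and a highest value of 17.5%. On day 7 the median was 6.88%, with quartiles of 2.74% and 11.95% and a highest value of 25.5%. Less than 10% was left for 191 members on day 5 and for 184 on day 7. Less than 1% was left for 23 and 29 members.

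On the log2(CPM + 1) scale the median change was -3.22 on day 5 and -3.26 on day 7, with quartiles of -3.76 and -2.80 on day 5. Over all 15482 genes with at least 10 CPM on day 0 the medians were -0.21 and -0.21. The change was -5 or lower for 8 members on day 5, between -5 and -4 for 36, between -4 and -3 for 128 and above -3 for 108. The added 1 limits how far a gene of few counts can drop on this scale, and 35 members were past 90% of the largest possible drop. In the 96 members between 10 and 20 CPM on day 0, a median of 5.74% was left on day 5. In the 96 between 20 and 50 CPM it was 5.33%, and in the 88 above that 9.11%. Because of the added 1, the rule's limit on the day 5 change allowed a smaller percentage left in genes of fewer day 0 counts. Differences between these classes can thus follow from the choice of members, and nothing is read from them.

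**Figure D2:**
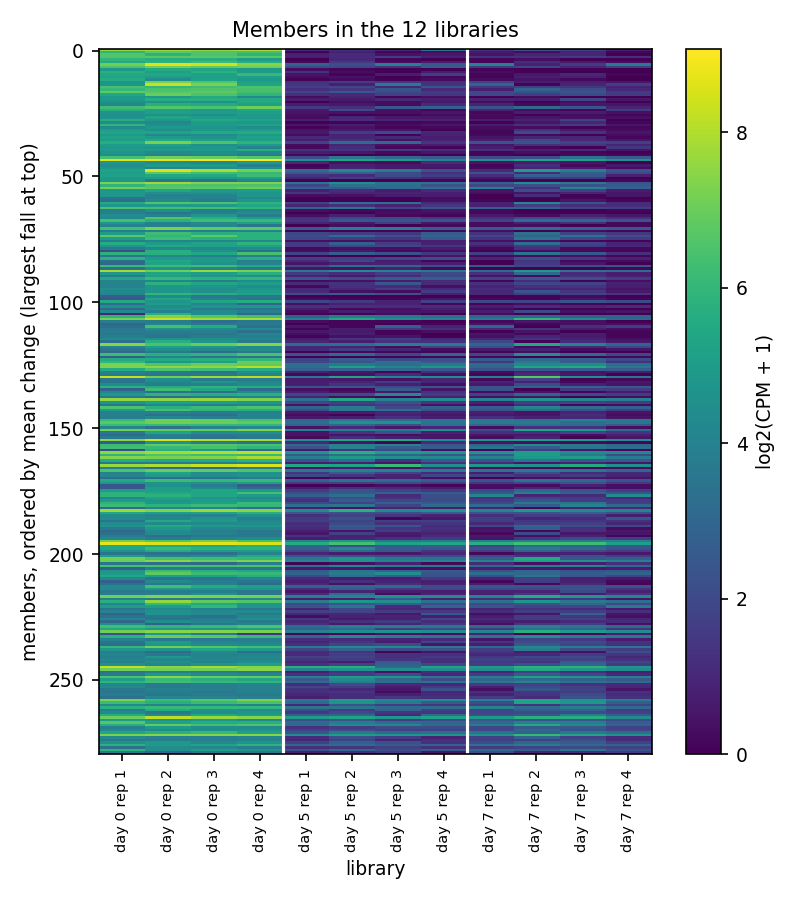
Level of each of the 280 members, as log2(CPM + 1), in the 12 libraries, with members ordered by the mean of their changes on both drought days (the largest drop at the top). The 4 day 0 columns are brighter than the 8 drought columns for every member, and the 2 drought days look alike.

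In edgeR's quasi-likelihood test over 26943 genes with Benjamini-Hochberg adjustment, all 280 members were called lower on day 5, against 28.8% of all genes. On day 7, 279 were called lower, against 23.6%. These contrasts chose the members, so nothing is read from the counts. The member not called on day 7 was Potri.006G278000, singled out here after its values were seen. It held 56.7, 54.8, 40.5 and 30.8 CPM in the day 0 libraries and 17.1, 0.913, 1.18 and 19.6 CPM in those of day 7. Its day 7 libraries split into a high and a low pair (adjusted p = 0.0582 by edgeR).

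Genes with the most counts came first by the naming rule. Counts are not divided by gene length here, so a higher CPM does not mean more transcripts than in another gene. Potri.001G472800 held the most, with 401, 435, 495 and 537 CPM on day 0. It stood at 22.4, 40.0, 32.5 and 15.5 CPM on day 5 and at 22.9, 39.4, 36.1 and 23.7 CPM on day 7. Its mean was 16.9-fold lower on day 5 and 15.3-fold lower on day 7, and the ranges of both drought days nearly coincided.

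Potri.008G139700 was at 422, 377, 416 and 368 CPM on day 0, among the most even of the abundant members. It kept 48.3, 81.7, 37.7 and 39.0 CPM on day 5 and 52.1, 78.3, 75.4 and 33.4 CPM on day 7, or 13.1% and 15.1% of its day 0 mean. In drought replicate 2 was its highest library on both days.

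Potri.017G081100 was reduced most among the 10. It held 182, 204, 180 and 230 CPM on day 0 and 1.36, 1.35, 0.915 and 8.89 CPM on day 5. On day 7 it held 1.31, 3.73, 2.26 and 0.694 CPM, a mean 99.5-fold lower than on day 0, against 63.6-fold on day 5. Day 5 replicate 4 stood above the others, and without it the day 5 mean was 164.5-fold lower.

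Potri.001G240900 differed widely among libraries of 1 day. Its day 0 values were 137, 395, 347 and 171 CPM, with replicates 2 and 3 high. On day 5 it held 6.04, 3.43, 14.8 and 4.79 CPM, and on day 7 15.4, 0.761, 1.86 and 12.6 CPM. On day 7 replicates 1 and 4 were high, but the replicate numbers are not known to pair libraries of different days.

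Potri.008G159800 and Potri.002G024400 were the abundant members in which day 7 replicate 2 was highest by the widest margin. Potri.008G159800 went from 307, 137, 213 and 277 CPM on day 0 to 11.5, 37.0, 16.2 and 20.8 CPM on day 5. On day 7 it held 14.2, 103, 23.2 and 10.9 CPM. Potri.002G024400 had day 0 values of 145, 310, 227 and 236 CPM, day 5 values of 15.04, 43.9, 19.9 and 13.8 CPM and day 7 values of 12.1, 61.7, 19.2 and 7.32 CPM. In both genes replicate 2 was also the highest library of day 5, but only in Potri.002G024400 was it the highest of day 0.

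The other 4 of the 10 kept between 9.61% and 18.9% of their day 0 means. Potri.010G170000 had means of 288 CPM on day 0, 41.1 on day 5 and 28.8 on day 7. Potri.007G087200 had means of 262, 31.6 and 27.1 CPM, and Potri.006G123900 of 238, 33.1 and 22.9 CPM. Potri.019G015100 had means of 220, 35.7 and 41.5 CPM, with day 5 replicate 3 at 6.95 CPM and the other day 5 libraries between 37.1 and 49.4.

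**Figure D3:**
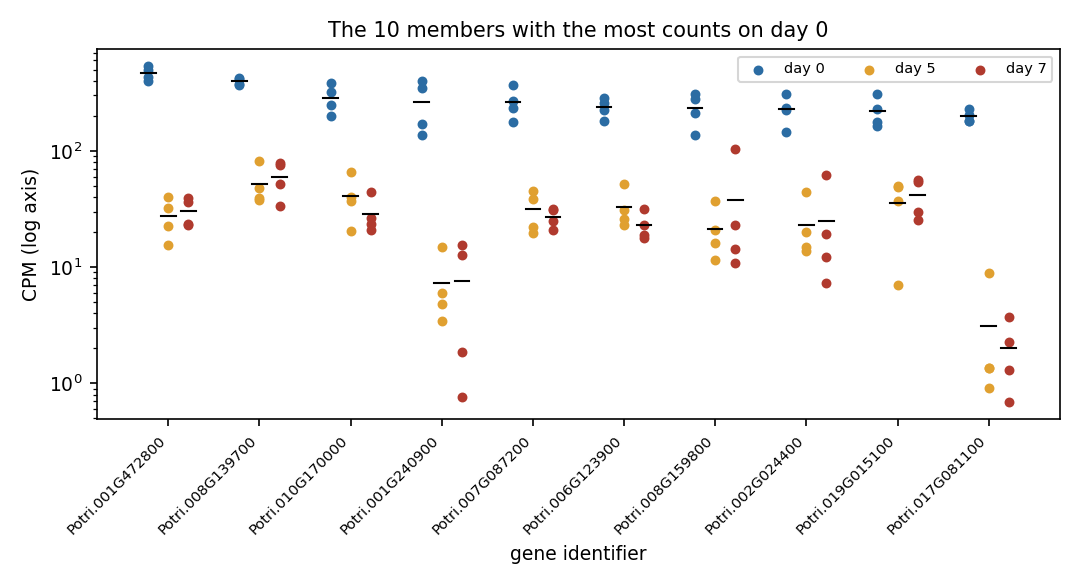
CPM (log axis) of the 10 members with the most counts on day 0, by identifier, with 4 libraries per day as points and the day's mean as a line. Day 0 points lie at 137 CPM or above in all 10, and drought points at 103 CPM or below.

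The 8 lowest mean changes over both drought days included Potri.017G081100 and Potri.001G240900 above, which kept up to 8.89 and 15.4 CPM in a drought library, and genes with little left. Potri.002G057900 held 59.5, 107, 95.6 and 84.2 CPM on day 0. It kept 0, 0.780, 0.122 and 0.232 CPM on day 5 and 0.540, 0.228, 0.902 and 0.0771 CPM on day 7. These means are 305-fold and 198-fold below day 0, with 1 day 5 library at 0 counts. Without day 5 replicate 2 the first was 733-fold, and without day 7 replicate 3 the second was 307-fold.

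Potri.001G128100 went from 59.5, 50.3, 51.4 and 31.5 CPM to 0, 1.04, 0.122 and 0 CPM on day 5, with day 5 replicate 2 holding nearly all of what was left. On day 7 it held 0.0772, 0.304, 0 and 0 CPM, with 2 libraries at 0 counts. Potri.009G127900 had means of 76.0 CPM on day 0, 0.702 on day 5 and 0.550 on day 7, which leaves 0.924% and 0.725%.

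Potri.008G101700 combined a low drought level with an even day 0 level. It held 96.0, 104, 104 and 105 CPM on day 0, with a coefficient of variation of 4.10%. It then held 0.756, 1.09, 1.95 and 0.773 CPM on day 5 and 1.47, 1.45, 1.97 and 1.31 CPM on day 7, which are 89.4-fold and 66.0-fold lower. Potri.012G071100 went from a mean of 118 CPM to 3.07 and 1.91 CPM, 38.5-fold and 61.9-fold lower.

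Of all members, 1 had no count in any day 5 library. It was Potri.006G106900, which stood at 12.8 CPM over the pooled day 0 libraries and was at least 263-fold lower on day 5, with a count of 0 taken as at most 3 counts over the 4 libraries. No member lacked counts in all day 7 libraries. A count was present in every library of the day for 256 members on day 5 and for 237 on day 7, so reads were still detected for most members in each drought library.

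The plateau between days 5 and 7 was part of the rule, and how it was filled is a description. L7 minus L5 was above 0 for 136 members and below 0 for 144, with a median of -0.01 and quartiles of -0.27 and 0.23. The window is wide for genes of few counts, because the added 1 compresses their ratios. The ratio of mean CPM on day 7 to day 5 was above 2 for 15 members and below 0.5 for 26. None of these 41 members, with ratios past 2-fold in either direction, had a mean above 13.2 CPM on a drought day. Among the 74 members with at least 5 CPM on day 5, the ratio lay between 0.515 and 2.01.

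edgeR called 8 members different between days 7 and 5 (6 lower and 2 higher on day 7), against 42.1% of all genes called (19.9% lower and 22.3% higher). This contrast, too, was used by the rule, and a member not called is not shown to be unchanged. Potri.010G066300 was 1 of the 2 higher genes. It held 52.7, 47.3, 59.1 and 48.3 CPM on day 0, 3.70, 4.21, 2.99 and 4.41 CPM on day 5, and 4.17, 5.94, 6.49 and 4.93 CPM on day 7. Its mean went from 3.83 CPM on day 5 to 5.38 CPM on day 7 (adjusted p = 0.0196 by edgeR), with overlapping libraries. The other 7 called members had means of at most 1.03 CPM on both drought days. When day 5 replicate 1 was left out 5 members were called. Leaving out a day 7 library gave 17 for replicate 1, 15 for replicate 2, 4 for replicate 3 and 15 for replicate 4.

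A total of 812 genes had at least 10 CPM on day 0 and a change of -2.5 or lower on day 5. The window of 0.5 divided them into 3 courses, whose sizes depend on it. With a width of 0.25 there were 137 members, and with a width of 1 there were 474. L7 minus L5 stayed within 0.5 for 283 genes (34.9%), of which 3 were no members because their libraries overlapped. It was below -0.5 for 226 genes (27.8%), against 25.1% of all genes with at least 10 CPM on day 0. These 226 had a median L7 minus L0 of -4.36. L7 minus L5 was above 0.5 for 303 genes (37.3%), which had a median L7 minus L0 of -1.86. For the courses within and above 0.5 no share over all genes was computed, so nothing is read from these sizes. The members are the middle of these 3 courses.

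**Figure D4:**
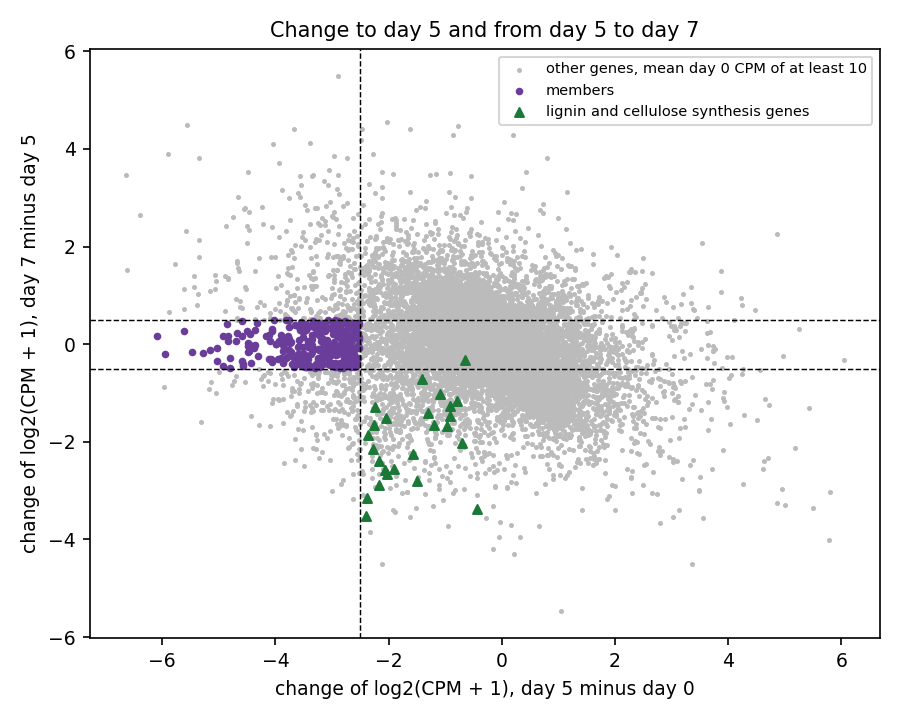
Change of log2(CPM + 1) from day 0 to day 5 (horizontal) and from day 5 to day 7 (vertical) for the genes with a mean of at least 10 CPM on day 0; dashed lines mark -2.5, -0.5 and 0.5. Members fill the box at the left, with other genes directly above and below it, and the 25 lignin and cellulose synthesis genes (triangles) lie to the right of the box and mostly under it.

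At 3 of the 4 edges the genes just inside and outside had nearly equal values. Potri.001G443000 was just inside the limit on the day 5 change at -2.52, and Potri.009G020100 just outside at -2.49. Potri.001G280700 was just inside the day 0 minimum at 10.03 CPM, and Potri.T121300 just outside at 9.93 CPM. For the plateau, Potri.001G304200 was inside with L7 minus L5 of 0.499 and Potri.011G010500 outside with 0.502. For the gap between the lowest day 0 and the highest drought library, Potri.015G036800 was inside by 0.112 CPM, and Potri.003G170100 overlapped by 6.10 CPM (a gap of -6.10 CPM).

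The 25 genes published for lignin and cellulose synthesis (enzymes of monolignol synthesis and secondary wall cellulose synthases) included 0 members. With 1.81% of all genes of at least 10 CPM being members, nothing is read from that number. Their designations come from publications and not from the files. Their median change on the log2(CPM + 1) scale was -1.56 on day 5, from -2.40 to -0.44, so none reached -2.5. By edgeR with Benjamini-Hochberg adjustment, 18 of the 25 were called lower on day 5 (28.8% of all genes), 24 on day 7 (23.6%) and 20 on day 7 against day 5 (19.9%). On day 7 their median was -3.82, and 19 of the 25 were at -2.5 or lower, against 6.53% of all genes with at least 10 CPM on day 0. L7 minus L5 was below -0.5 in 24 of them (25.1% of those genes), with a median of -1.85, against -0.01 for the members, whose value the rule fixed. As a share of counts, the wood genes went from 2.53% ± 0.980 (SD, n = 4) on day 0 to 0.805% ± 0.225 on day 5 and 0.267% ± 0.134 on day 7. The members' median change was the lower one on day 5 (-3.22) and the wood genes' on day 7, against -3.26 for the members; the choice of members fixes their course, and the difference was not tested.

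The order of libraries within a day was not used by the rule beyond the gap. It rests on CPM from total counts, and no other scaling was tried for it. On day 0, TMM scaling raised the size of replicate 1 from 9351583 to 10444501 counts. It lowered that of replicate 2 from 16035331 to 15009715, so the percentages below can depend on the scaling. On day 0, replicate 2 was the highest library for 124 members (44.3%), against 22.2% of all genes with at least 10 CPM on that day. Replicate 1 was highest for 48 (17.1% against 37.3%), replicate 3 for 28 (10% against 16.7%) and replicate 4 for 80 (28.6% against 23.8%). Replicate 2 also held the largest day 0 share of the wood genes (3.87%, against 1.71% to 2.63%), with 22 of the 25 highest there. The part of the wood tissue mix in the members' day 0 levels was not tested.

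On day 5, replicate 2 was highest for 137 members (48.9% against 38.1%), replicate 3 for 69 (24.6% against 22.7%), replicate 4 for 54 (19.3% against 24.9%) and replicate 1 for 20 (7.14% against 14.3%). On day 7, replicate 2 was highest for 141 members (50.4%), against 35.3% of all genes with at least 10 CPM on day 0. Replicate 4 was highest for only 14 (5%), against 26.9%. Replicates 2 and 3 were both above replicates 1 and 4 on day 7 for 144 members (51.4%, against 30.7% of those genes) and on day 5 for 101 (36.1%, against 24.7%), a count chosen after the values were seen. The wood genes had their highest day 7 library in replicate 2 for 19 of 25, while replicate 3 held their lowest share, 0.174%, against 0.465% in replicate 2. Members and wood genes thus shared the high replicate 2 on day 7 but not the position of replicate 3 on that day. On day 5 the wood genes' shares were 0.673%, 1.01%, 0.980% and 0.556% in replicates 1 to 4. Replicates 2 and 3 thus held the higher shares of both sets on day 5.

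The median spread among libraries of the same day was larger for the members than over all genes of at least 10 CPM on day 0. The median SD of log2(CPM + 1) within a day was 0.355 for the members on day 0, against 0.2498 for the 15482 genes. It was 0.374 against 0.207 on day 5 and 0.435 against 0.242 on day 7. The members' mean CPM had a median of 29.8 on day 0, 1.75 on day 5 and 1.83 on day 7. Counting error depends on the level, and genes of like level were not compared, so its part in these spreads was not tested.

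Extremes of this spread on day 0 were named by the rule. Potri.014G127000 had a coefficient of variation of 113%, with 0.962, 53.1, 20.8 and 7.19 CPM on day 0 and at most 0.244 CPM in any drought library. Potri.003G175900 (103%) held 25.2, 319, 146 and 38.4 CPM on day 0. Potri.012G091500 (104%) held 3.96, 27.7, 11.7 and 1.78 CPM. In all 3 genes replicate 2 was the highest day 0 library and replicate 3 the next, as for the wood share.

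At the other end, Potri.001G099700 held 16.5, 16.9, 17.3 and 17.8 CPM on day 0, a coefficient of variation of 3.32%. It stood at 1.59, 2.03, 1.59 and 1.39 CPM on day 5 and at 2.47, 2.21, 2.48 and 1.54 CPM on day 7. Potri.016G002800 held between 84.0 and 92.0 CPM on day 0, then 8.84 to 17.5 CPM on day 5 and 7.03 to 16.4 CPM on day 7. The members thus included genes that were steady among watered libraries and genes that varied more than 10-fold there. The rule required the early drop of all of them.

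Members were found on all 19 chromosomes, and 3 had no chromosome in their identifier. Chromosome 18 had the largest share, with 18 members among its 584 genes of at least 10 CPM on day 0 (3.08%), and chromosome 7 the smallest, with 5 of 557 (0.898%); the share over all such genes was 1.81%. These shares are descriptions, with no test.

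Some members stood beside each other. Of the 229 genes next to a member that had at least 10 CPM on day 0, 13 were members themselves (5.68%), against 1.81% of all such genes. Within 5 identifiers, 33 members had another. No share over all genes was computed for that distance, so nothing is read from this number. The 216 neighbours with at least 10 CPM that were no members had a median change of -0.38 on day 5, against -0.21 over all such genes, and 28.2% of them were at -1 or lower, against 20.7%.

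The longest run was 4 consecutive identifiers of chromosome 18. Potri.018G126700 held 46.8, 57.4, 73.5 and 49.2 CPM on day 0, then 0.151, 1.82, 0.244 and 0.618 CPM on day 5 and 0.0772, 1.29, 0.564 and 0.231 CPM on day 7. Potri.018G126800 held 14.2, 10.2, 13.2 and 13.7 CPM on day 0 and at most 0.913 CPM in a drought library. Potri.018G126900 held 33.0, 21.6, 27.7 and 31.0 CPM on day 0 and at most 1.52 CPM afterwards.

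Potri.018G127000 held 27.1, 15.7, 22.1 and 23.7 CPM on day 0 and at most 0.780 CPM in drought. In the last 3 of the run replicate 2 was the lowest day 0 library, whereas in Potri.018G126700 replicate 3 was the highest and replicate 1 the lowest. Genes on either side kept more: Potri.018G126600 before the run went from a mean of 64.1 CPM to 32.7 on day 5 and 41.8 on day 7. Potri.018G127100 after it went from 7.65 to 3.06 and 3.05 CPM, and Potri.018G127200 stayed between 126 and 138 CPM in the means of all 3 days. Potri.018G127300, the next, had means of 42.9, 13.1 and 9.72 CPM.

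**Figure D5:**
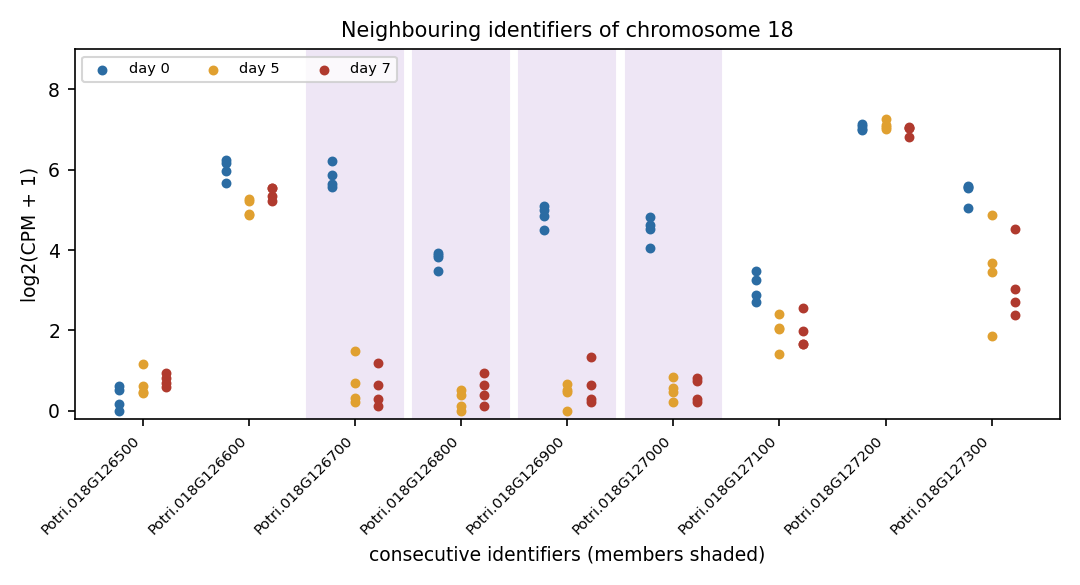
Level, as log2(CPM + 1), of 9 consecutive identifiers of chromosome 18 in the 12 libraries, with 4 points per day and the 4 members shaded. In the shaded genes every drought point is at 1.82 CPM or below and every day 0 point at 10.2 CPM or above, while Potri.018G127200 keeps nearly the same level on all 3 days.

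A run of 3 lay on chromosome 4. Potri.004G137400 held 48.1, 31.5, 37.9 and 58.0 CPM on day 0, then 2.04, 5.57, 1.83 and 0.773 CPM on day 5 and 1.39, 8.75, 2.54 and 0.848 CPM on day 7. Potri.004G137500 had the same order of libraries on days 0 and 7, with a mean of 17.2 CPM on day 0, then 0.680, 1.46, 0.732 and 0.309 CPM on day 5 and 0.540, 3.35, 0.733 and 0.385 CPM on day 7. Potri.004G137600, with means of 16.5, 0.465 and 0.220 CPM, did not, and its lowest day 0 library was replicate 1. Potri.004G137200, 2 identifiers before the run and under the day 0 minimum, had means of 5.06, 0.285 and 0.935 CPM.

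The other neighbouring members were pairs. Potri.010G066200 held 72.5, 66.1, 64.8 and 61.1 CPM on day 0 and between 3.599 and 9.29 CPM in the drought libraries, beside Potri.010G066300 above. Their next neighbour Potri.010G066400, no member, went from a mean of 167 CPM to 366 on day 5 and 133 on day 7. Potri.013G000900 had a mean of 11.4 CPM on day 0, then 0.0756, 0.104, 0.305 and 0.0773 CPM on day 5 and 0.309, 0.228, 0.790 and 0.308 CPM on day 7. Potri.013G001000 had means of 23.2, 0.179 and 0.168 CPM on days 0, 5 and 7.

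Potri.004G005200 had means of 13.8, 0.722 and 0.577 CPM and Potri.004G005300 of 23.8, 1.33 and 0.892 CPM. The identifier after this pair, Potri.004G005400, missed membership by its day 0 mean of 9.91 CPM and had changes of -2.95 on day 5 and -3.18 on day 7.

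Neighbouring or similar genes can share reads, since how the counting treated reads that match several genes is not given in the sources used here. No member had counts identical to those of another gene in all 12 libraries. Outside the naming rule, 2 pairs were singled out after their values were seen. The counts of Potri.003G102400 were 0.896 to 1.04 times those of Potri.003G102600 in the 12 libraries. Those of Potri.018G108200 were 1.00 to 1.24 times those of Potri.018G108700. Whether the members of each of these pairs share reads was not tested, so they are not taken as separate measurements.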

How the data were processed

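Whole-number read counts, unnormalised and deposited by the authors as 1 table, cover 41335 genes in 12 libraries. Per the submitters' processing notes, TopHat was used; no version, genome build or counting program is named in the sources used here. Every row names a gene and every column was used. Bounds on counts of 0 cover counting error only.

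Groups and replicate numbers came from library titles. Members were found on CPM from total counts with a pseudocount of 1. edgeR 4.0.16 in R 4.3.3 (filterByExpr with a minimum count of 10, TMM scaling, a quasi-likelihood fit of day means, Benjamini-Hochberg adjustment at 0.05) was fitted to all genes and libraries and tested on simulated data. DESeq2 1.42.0 and limma 3.58.1 (voom) served as alternatives. P-values measure the spread between these libraries, which may be technical. Figures used matplotlib 3.10.9 in Python 3.11.15.

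The members and lists were chosen with earlier results of these data known. Members named are the 10 with the highest day 0 CPM, the 8 with the lowest mean change, the 3 smallest and 3 largest day 0 coefficients of variation, direct neighbours, and genes at each threshold. A part of that rule on genes of like pattern was not applied, because the libraries form separate clusters by day. Lists by product name and promoter motifs were not analysed here, since no table used pairs the identifiers with names or sequences.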

Additional observations from a re-analysis of the deposited data

Results flagged for a closer look

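Dixon's test was applied to the 4 libraries of a day for each named member and for the members' summed levels. In 11 of 117 such groups 1 library lay apart. Chance gives about 1 in 20 for normally distributed values, and the groups share libraries. Some groups held few counts, where that rate need not hold, so nothing is read from the number of groups. On day 7, replicate 2 stood high for Potri.008G159800, at 103 CPM against 10.9 to 23.2, and for Potri.004G137500, at 3.35 CPM against 0.385 to 0.733. On day 7, replicate 3 stood high for Potri.013G000900, at 0.790 CPM against 0.228 to 0.309, and replicate 1 for Potri.014G127000, at 0.232 CPM against 0 in the others.

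On day 5, replicate 4 stood high for Potri.017G081100, at 8.89 CPM against 0.915 to 1.36, and replicate 2 for Potri.001G128100, at 1.04 CPM against 0 to 0.122. Replicate 3 of day 5 stood high for 3 members. These were Potri.003G175900, at 12.1 CPM against 0.728 to 1.74, Potri.004G005300, at 2.07 CPM against 1.04 to 1.16, and Potri.013G000900, at 0.305 CPM against 0.0756 to 0.104.

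On day 0, replicate 1 stood low for Potri.008G101700, at 96.0 CPM against 104 to 105, and replicate 2 for Potri.001G443000, at 7.17 CPM against 11.5 to 12.2.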

How the results depend on the processing

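The number of members was 184 with a day 0 minimum of 20 CPM, 172 with a day 5 change of at most -3, 137 with a plateau width of 0.25 and 474 with a width of 1; with TMM, RLE or upper-quartile scaling it was 251, 252 and 271, of which 248, 249 and 265 were among the 280. A pseudocount of 0.5 gave 247 (223 shared) and 2 gave 250 (200 shared). The number lay between 256 and 313 when 1 library was left out, with 231 to 270 shared. TMM scaling shifted the median change of all genes of at least 10 CPM by 0.14 on day 7, and the members' medians were then -3.15 and -3.14. With a pseudocount of 0.5 the medians were -3.52 on day 5 and -3.58 on day 7, and with 2 they were -2.79 and -2.83. Leaving out 1 library gave medians of -3.27 to -3.14 for day 5, -3.38 to -3.17 for day 7 and -0.13 to 0.07 between the days. Shares of counts then lay at 1.44% to 1.56% on day 0, 0.117% to 0.143% on day 5 and 0.117% to 0.158% on day 7.

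Members called lower numbered 279 to 280 on day 5 and 275 to 280 on day 7 over all alternatives, of which 1 filter left 279 members tested. Over all genes, 6896 to 8555 were called lower on day 5 and 5617 to 7041 on day 7, among 25572 to 37201 tested. The rule used these contrasts, so nothing is read from the members' numbers. Members called different between days 7 and 5 numbered 17 with DESeq2 and 1 with limma-voom. With these 2 groups alone the number was 0 by edgeR, among 196 members tested, of which 4 had an unadjusted p under 0.05; leaving out 1 library gave 4 to 17. Same-numbered libraries of different days correlated between -0.171 and 0.487 in their deviations from the day means, with 4 of 12 pairs above 0.1. The highest value was that of replicate 2 on days 5 and 7. Differently numbered libraries of different days correlated between -0.434 and 0.243. These correlations do not settle whether the numbers pair the libraries. With replicate number as a block, 280, 278 and 11 members were called in the 3 comparisons. Of 962 recomputed changes of 37 named members, 92 moved by over 1 SD, 71 of them by pseudocount, and 0 changed sign. The rule put every drought library below every day 0 library. Leaving out a library or changing the pseudocount could thus not turn the sign, and nothing is read from that 0. Counts in drought libraries limit what can be said of members under 1 CPM.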
